A study of Mus musculus with 3 samples.

Results

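The genes described here are those of 6 families of transcription factors (Sox, Fox, Tbx, Gata, Klf and Ets), read in stromal cells sorted from the mouse mesenteric lymph node. Members were picked by the gene name in the array's own annotation: the stems Sox, Tbx, Gata and Klf with a number, Fox with a letter and number, the Etv, Elk and Elf genes, and Ets1, Ets2, Erg and Fli1. The rule leaves out Sox18, Foxc2, Tbx1 and Gata2. It took 110 of 28080 gene names, measured by 189 probes: 39 Fox, 19 Sox, 18 Ets, 17 Klf, 12 Tbx and 5 Gata genes. The stem also took in Sox2ot, a long non-coding RNA gene. Foxf1a is the array's name for Foxf1.

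The cells came from wild-type C57BL/6NCrl mice, whose nodes were digested with collagenase, depleted of CD45-bearing cells and sorted as CD45 and CD24 negative. The labels name no treatment, age or sex. Fibroblastic reticular cells (FRC) were gp38 positive and CD31 negative, lymphatic endothelial cells (LEC) carried both proteins, and blood endothelial cells (BEC) only CD31. Each population was read on 1 single-colour array. The labels give the average purity as 88% ± 1.5 without saying what the error is, and the number of mice behind each RNA was not given in the sources used here. With 1 array a population, no difference has a replicate check, no test was possible, and population, sort and array cannot be told apart.

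Proteins of a family share the fold that reads DNA: a high-mobility-group box in Sox proteins, a forkhead domain in Fox, a T-box in Tbx, zinc fingers in Gata and Klf, and the ETS domain in Ets proteins. Members of a family bind closely similar DNA words, so which member a cell expresses, and with which partner, matters to what the family does there. In endothelium, Ets proteins such as Erg, Fli1 and Ets1 work at vessel enhancers with forkhead, Sox and Gata proteins, while other Sox, Fox and Tbx genes are better known from fibroblasts and mural cells.

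A level below is a log2 signal with the 75th percentile of its own array set to 0, and it is compared only with the same probe on another array. Each gene was read through its brightest probe (highest mean over the 3 arrays), and a difference was called at 4-fold, or 2 on the log2 scale. Log2 differences are named first population over second ("LEC over FRC"). A gene was above background if the scanner software marked at least 1 of its probes so. Where it was not, on the dimmer array, the fold is a lower bound against the dimmest signal accepted there (-4.34 for FRC, -4.20 for LEC, -4.38 for BEC). Of the members, 65 were above background on all 3 arrays, 8 on 2, 9 on 1 and 28 on none. The scanner's own error for members above background had a median of 0.146 to 0.147 and a maximum of 0.317 on the log2 scale, and covers spot error only.

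The sorts were first set against marker genes. Pdpn, which encodes the sorted gp38, is in the FRC and lymphatic lists, and Pecam1, which encodes CD31, is in the endothelial list. Those lists are therefore not independent of the sort. Of 12 FRC markers, 10 passed 4-fold toward FRC against LEC and 11 against BEC. Of 8 endothelial markers, 6 passed toward LEC and 7 toward BEC, both against FRC. Between the endothelia, 9 of 11 lymphatic markers passed toward LEC and 8 of 11 blood vessel markers toward BEC. Against FRC, 7 of the blood vessel markers also passed toward LEC and 2 toward FRC. Of the lymphatic markers, 8 passed toward BEC and 1 toward FRC in that pair. The part of one endothelial population in the signals of the other, members included, was not tested. Leukocyte markers were present as well: 13, 14 and 14 of 15 were above background in FRC, LEC and BEC, with summed log2 levels of 3.47, 4.28 and 4.75. Against FRC, 5 passed toward BEC and 1 toward LEC, and Itgam was above background nowhere. In sorted bulk RNA, fewer cells of a type and less RNA per cell cannot be told apart.

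In all, 23 members differed 4-fold or more between some pair of arrays. A set of 7 lay above FRC in both endothelia: Sox7, Sox17, Foxc1, Erg, Fli1, Ets1 and Elk3. A set of 8 lay above both endothelia in FRC: Sox8, Sox9, Foxf2, Foxs1, Foxo6, Klf5, Klf15 and Etv1. Foxp2, Klf9 and Klf12 were called for LEC against FRC and not for BEC against FRC, and Sox13, Sox14, Tbx3, Gata6 and Ets2 the reverse. Whether those pairs of differences differ from each other was not tested, and both use the same FRC array. On the other Klf9 probe, FRC passed 4-fold over BEC and not over LEC. How often calls were shared or split over all genes was not counted, so these set sizes only describe the members.

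**Figure D1:**
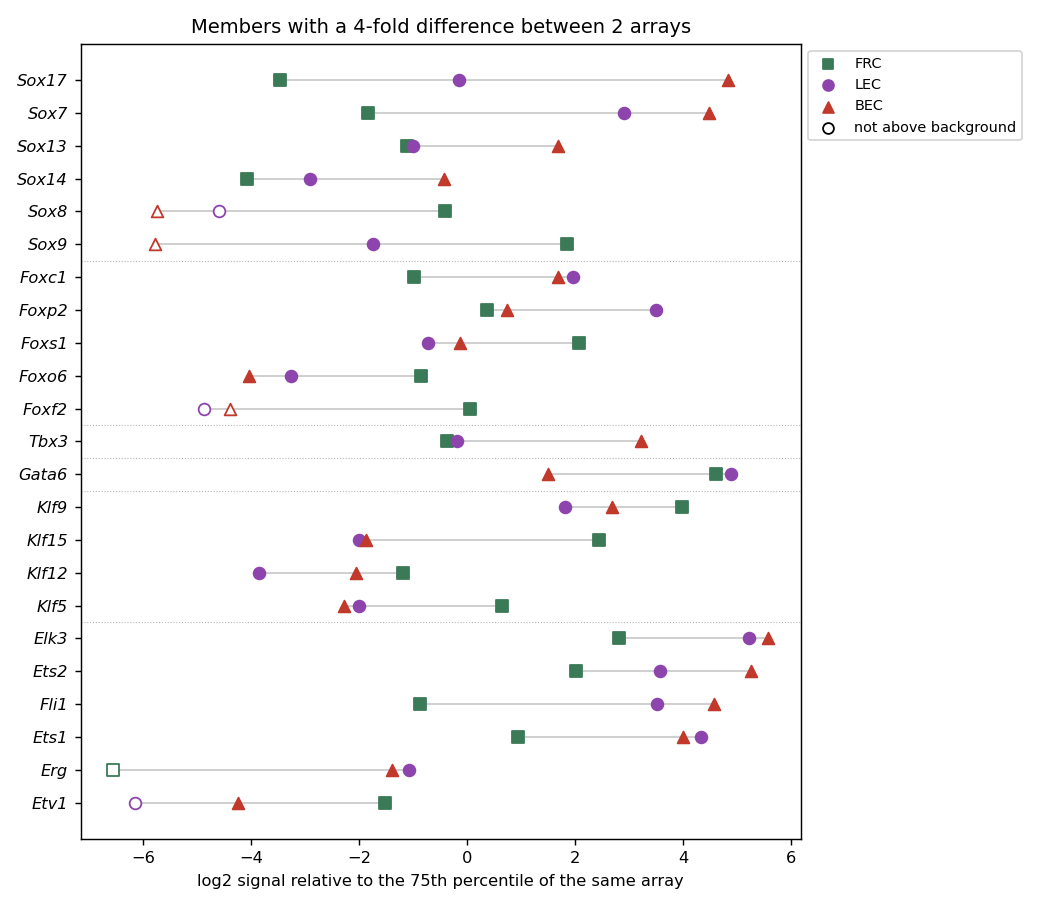
Log2 signal of the 23 called members on each array, relative to that array's 75th percentile (x axis), with 1 gene per line. Squares are FRC, circles LEC and triangles BEC, with open symbols where the gene was not above background. In all 4 Klf genes the FRC symbol is the highest, and in Sox17, Sox7, Fli1 and Ets2 the BEC symbol is.

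Between LEC and FRC, 18 of 78 members compared were called (23.1%), 8 toward LEC and 10 toward FRC. Over all 18443 genes compared the share was 10.8%, made of 4.89% and 5.93%. Between BEC and FRC, 20 of 80 members were called (25%), 11 toward BEC and 9 toward FRC, against 14.2% of all genes, made of 6.58% and 7.58%. Between the endothelia, 7 of 79 members were called (8.86%), 3 toward LEC and 4 toward BEC, against 6.78%, made of 3.39% and 3.38%. At 4-fold the members' share thus lay above that of all genes in both comparisons with FRC and near it between the endothelia. The members' median difference was 0.27 (LEC over FRC), 0.30 (BEC over FRC) and -0.02 (LEC over BEC), beside 0.02, 0.09 and -0.06 over all genes.

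Counts at other thresholds were set beside all genes in the same way. At 2-fold, 18 members (23.1%) lay toward LEC and 13 (16.7%) toward FRC, against 13% and 13.4% of all genes. Between BEC and FRC, 16 (20%) lay toward BEC and 14 (17.5%) toward FRC, near the 16.7% and 16.5% of all genes. Between the endothelia, 7 (8.86%) lay toward LEC and 14 (17.7%) toward BEC, against 11% and 10.1%. At 8-fold the same 6 counts were 6, 4, 7, 6, 1 and 2. These were 7.69%, 5.13%, 8.75%, 7.5%, 1.27% and 2.53% of members, and the shares of all genes were 2.43%, 3.16%, 3.35%, 3.98%, 1.1% and 1.37%.

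**Figure D2:**
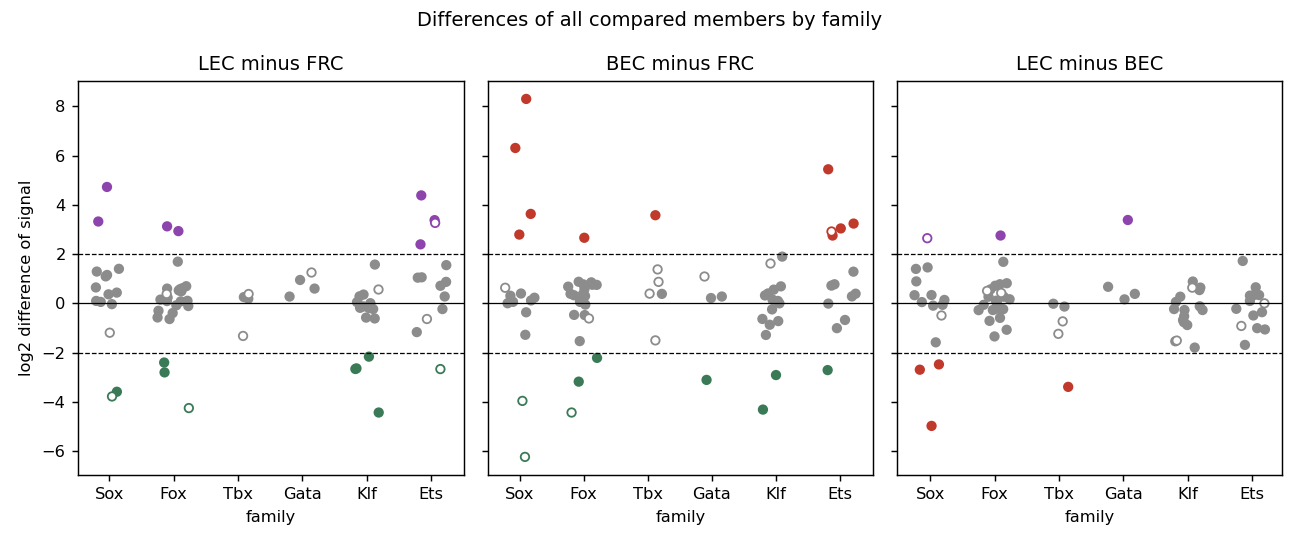
Log2 difference (y axis) of every compared member by family (x axis), with dashed lines at 4-fold, open points for lower bounds, and colour for the higher population of a called member. For BEC over FRC the Sox genes reach 8.31 and the Ets genes 5.45, while no called Klf gene lies above 0.

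Promoter sequences are shown for genes of the 2 sets that moved together, so that members above FRC in both endothelia can be seen beside members above both in FRC. The RefSeq table (build GRCm38.p6) matched 77 members, among them Elk3, Erg and Foxc1 of the first set and Etv1, Foxf2, Klf15 and Sox8 of the second. Given below are the 250 bases before the outermost RefSeq start of 2 genes a set, 5′ to 3′ along the gene. Capitals mark the Klf word CACCC and the Ets word CCGGAA on either strand.
Erg, chr16:95586594-95586843, minus strand: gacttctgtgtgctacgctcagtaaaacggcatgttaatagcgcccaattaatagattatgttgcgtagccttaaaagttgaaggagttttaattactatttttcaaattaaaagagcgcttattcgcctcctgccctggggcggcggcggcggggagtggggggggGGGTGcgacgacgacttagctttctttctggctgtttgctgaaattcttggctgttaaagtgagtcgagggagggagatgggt
Foxc1, chr13:31806396-31806645, plus strand: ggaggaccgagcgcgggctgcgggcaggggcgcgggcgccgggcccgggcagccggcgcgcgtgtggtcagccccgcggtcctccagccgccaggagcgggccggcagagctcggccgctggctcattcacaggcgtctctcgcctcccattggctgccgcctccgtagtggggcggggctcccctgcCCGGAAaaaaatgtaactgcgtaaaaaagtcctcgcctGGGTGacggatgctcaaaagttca
Foxf2, chr13:31625566-31625815, plus strand: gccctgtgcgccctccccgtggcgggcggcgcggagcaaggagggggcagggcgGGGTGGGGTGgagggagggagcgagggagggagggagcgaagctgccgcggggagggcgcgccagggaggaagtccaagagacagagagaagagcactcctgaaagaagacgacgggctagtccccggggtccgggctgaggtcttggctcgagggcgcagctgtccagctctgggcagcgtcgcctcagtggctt
Klf15, chr6:90462326-90462575, plus strand: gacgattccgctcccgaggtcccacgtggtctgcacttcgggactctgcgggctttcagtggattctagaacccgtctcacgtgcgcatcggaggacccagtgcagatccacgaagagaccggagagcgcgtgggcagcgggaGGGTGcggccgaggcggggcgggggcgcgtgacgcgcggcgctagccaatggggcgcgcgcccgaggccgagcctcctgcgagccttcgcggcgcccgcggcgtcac

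The Klf word was in the windows of all 7 genes, and in 67.5% of the 77 members and 51.3% of all 27025 promoters of that length. The Ets word was in the Foxc1 window, 62 bases before the start, and in none of the other 6. It was in 7.79% of members and 12.3% of all promoters. The Sox word AACAAT, the forkhead word GTAAACA, the Gata word AGATAA and the T-box word AGGTGTGA, searched on both strands, were in none of the 7. Among the matched members they were in 3, 4, 2 and 0, and among all promoters in 9.62%, 3.06%, 10.2% and 1.14%. None of the 6 words contains another. Members' windows had a median GC content of 62.8% with 17 CpG sites, against 52% and 6 over all promoters. A match of letters is no measure of binding.

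Sox7 and Sox17 belong to the SoxF group, which acts in vascular development, and both lay far above FRC in the endothelia. Sox17 read -3.46 for FRC against -0.14 for LEC and 4.84 for BEC. BEC stood highest and FRC near the dimmest accepted signal, so that BEC exceeded FRC 316-fold, LEC exceeded FRC 10.0-fold and BEC exceeded LEC 31.6-fold. A second Sox17 probe gave log2 differences of 6.99 (BEC over FRC), 2.60 (LEC over FRC) and -4.39 (LEC over BEC). A further one, above background in BEC only, put BEC at least 4.56-fold above FRC. The Sox17 probe maps to chromosome 1 at 4481503 to 4481562 on the minus strand (mm9).

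Sox7 read -1.82 for FRC against 2.90 for LEC and 4.49 for BEC. Both endothelia lay above FRC, LEC 26.5-fold and BEC 79.5-fold, and BEC over LEC was under the threshold. The other Sox7 probe was not above background in FRC, and on it LEC exceeded FRC at least 9.06-fold while BEC over FRC also passed 4-fold. The Sox7 probe maps to chromosome 14 at 64569419 to 64569478 on the plus strand (mm9).

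Sox13, of the SoxD group, and Sox14, of the SoxB group and better known from the nervous system, were highest on the BEC array. Sox13 read -1.11 for FRC against -1.01 for LEC and 1.69 for BEC, so BEC exceeded FRC 6.94-fold and LEC 6.48-fold. Sox14 read -4.06 for FRC against -2.91 for LEC and -0.43 for BEC, BEC exceeding FRC 12.4-fold and LEC 5.58-fold. The second Sox14 probe, above background in BEC only, gave bounds only, at least 1.51-fold over FRC and at least 1.18-fold over LEC.

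Sox8 and Sox9, of the SoxE group, were highest in FRC, and Sox9 is known for cartilage and matrix-producing cells. Sox9 read 1.86 for FRC against -1.73 for LEC and -5.79 for BEC, the last not above background. FRC exceeded LEC 12.1-fold and BEC at least 75.5-fold, and LEC exceeded BEC at least 6.26-fold. A second Sox9 probe gave -4.30 for LEC over FRC, and on it the SD between 10 spots was 0.07 for FRC and 0.47 for BEC. Sox8 read -0.41 for FRC against -4.59 for LEC and -5.75 for BEC and was above background in FRC alone. There it exceeded LEC at least 13.8-fold and BEC at least 15.6-fold, and its other probe, also above background in FRC alone, gave bounds under the threshold. Schwann cells express SoxE genes too. Of 5 Schwann cell markers, 4, 3 and 2 were above background in FRC, LEC and BEC, with summed log2 levels of 1.72, -0.80 and -1.28. S100b and Mbp passed 4-fold toward FRC against both endothelia, at 0.92, -3.60 and -4.27 and at 0.29, -1.73 and -1.84 in FRC, LEC and BEC, and Cdh19 was above background nowhere. Their part in the Sox8 and Sox9 signals was not tested.

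Sox11, a SoxC gene of progenitor cells, was singled out after its values were seen, because its probes conflict. The probe with the highest mean read -3.37 for FRC against -1.97 for LEC and -3.37 for BEC. All 5 other probes were above background in FRC and not in LEC, and on them FRC exceeded LEC by at least 2.23-fold to at least 3.49-fold. FRC exceeded BEC by at least 2.60-fold to at least 3.95-fold on the 3 that were not above background in BEC, and the other two gave -0.99 and -0.57 for BEC over FRC. None of these values passed 4-fold. The order of FRC and LEC for Sox11 is therefore not settled by these arrays. Of the other Sox members, Sox2, Sox2ot and Sox30 were above background on no array, and 10, Sox11 included, were compared without a call.

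Foxc1, a forkhead gene of vessel and mesenchyme development, read -0.98 for FRC against 1.96 for LEC and 1.69 for BEC. The endothelia lay close together, LEC exceeding FRC 7.65-fold and BEC exceeding it 6.34-fold. The Foxc1 probe maps to chromosome 13 at 31901257 to 31901316 on the plus strand (mm9), and its promoter window is the one printed above with both words.

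Foxp2, best known from brain and lung, stood apart in LEC. It read 0.37 for FRC against 3.50 for LEC and 0.75 for BEC, so that LEC exceeded FRC 8.74-fold and BEC 6.75-fold. A second Foxp2 probe was above background in LEC alone and put it at least 6.71-fold over FRC and at least 6.91-fold over BEC. Its relative Foxp1 had the highest uncalled LEC over FRC difference among members, 1.69. Foxp3, the factor of regulatory T cells, was above background on no array.

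Foxf2, Foxs1 and Foxo6 were highest in FRC. Foxf2, a mesenchymal factor of the gut wall and of pericytes, read 0.06 for FRC against -4.87 for LEC and -4.39 for BEC, and neither endothelial signal was above background. FRC exceeded LEC at least 19.1-fold and BEC at least 21.6-fold. Its relative Foxf1a was not called, with -0.57 for LEC over FRC and 0.77 for BEC over FRC. The Foxf2 probe maps to chromosome 13 at 31723139 to 31723198 on the plus strand (mm9).

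Foxs1, described in pericytes, read 2.08 for FRC against -0.72 for LEC and -0.13 for BEC, FRC exceeding LEC 6.99-fold and BEC 4.64-fold. Pericyte and smooth muscle markers, 11 genes, were above background on all arrays and went both ways: 4 passed 4-fold toward FRC and 2 toward LEC in that pair, and 4 toward FRC and 2 toward BEC in the other. Des, desmin, was at 2.62, -1.06 and 0.61 in FRC, LEC and BEC, and Mcam, which endothelium also expresses, at -0.57, 2.57 and 5.37. Their summed log2 levels were 6.90, 6.28 and 7.13, and their part in the Foxs1 and Foxf2 signals was not tested. Foxo6, a FOXO gene, read -0.85 for FRC against -3.26 for LEC and -4.04 for BEC, FRC exceeding LEC 5.29-fold and BEC 9.07-fold.

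Foxo1, a FOXO gene restrained by AKT signalling, was not called and read 3.91 for FRC against 4.44 for LEC and 4.66 for BEC. Foxo3 was above background on no array by either probe. Of 14 genes of the FOXO pathway, 1 passed 4-fold toward LEC and 1 toward FRC, 1 toward BEC and 2 toward FRC, and 0 between the endothelia. Sgk1, a kinase that phosphorylates FOXO proteins, was at 3.21, 5.26 and 6.83 in FRC, LEC and BEC, and Akt2 at 1.15, -0.99 and -1.46. The list's median was -0.18 for LEC over FRC and -0.66 for BEC over FRC, below the medians of all genes given above. Of the Fox members, 14 were above background on no array and 20 were compared without a call.

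Tbx3 was the only T-box member called. This repressor, known from limb and heart development, read -0.36 for FRC against -0.18 for LEC and 3.22 for BEC. FRC and LEC lay together and BEC apart, exceeding FRC 12.0-fold and LEC 10.5-fold. Its other probe was above background on no array. The Tbx3 probe maps to chromosome 5 at 120134473 to 120134532 on the plus strand (mm9). Tbx18, a mural cell gene, was above background in FRC alone, with bounds of 2.50-fold over LEC and 2.84-fold over BEC, under the threshold. Of the Tbx members, 6 were above background on no array.

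Gata6 was the only Gata member called and was lowest in BEC. This factor of mesenchyme, vessel walls and resident peritoneal macrophages read 4.61 for FRC against 4.89 for LEC and 1.50 for BEC. FRC exceeded BEC 8.64-fold and LEC exceeded it 10.5-fold, while LEC over FRC was 0.28. A second Gata6 probe gave -2.77 for BEC over FRC and 2.93 for LEC over BEC. Mesothelium also expresses Gata6. Of 5 mesothelial markers, 5, 4 and 3 were above background in FRC, LEC and BEC, 4 passed 4-fold toward FRC against BEC and 2 against LEC, and the summed log2 levels were 2.80, 1.11 and -0.68. Wt1 was at 0.76, -4.41 and -6.49 and was above background in FRC only. Their part in the Gata6 signal was not tested. Gata3 was above background in both endothelia and not in FRC, and its bounds were under the threshold.

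All 4 Klf members called were highest in FRC. Klf15, a glucocorticoid-responsive factor of metabolism, read 2.44 for FRC against -1.99 for LEC and -1.87 for BEC. The endothelia lay together, and FRC exceeded LEC 21.6-fold and BEC 19.9-fold. Its other probe gave smaller differences, -1.87 and -1.73, both under the threshold. The Klf15 probe maps to chromosome 6 at 90425007 to 90425066 on the plus strand (mm9).

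Klf5, known from epithelium and smooth muscle, read 0.64 for FRC against -2.00 for LEC and -2.27 for BEC, FRC exceeding LEC 6.24-fold and BEC 7.53-fold. Epithelial markers were read beside it: 0 of 5 passed 4-fold toward FRC against LEC and 2 against BEC, and their part in the Klf5 signal was not tested. Klf9, also glucocorticoid-responsive, read 3.98 for FRC against 1.81 for LEC and 2.69 for BEC. FRC exceeded LEC 4.49-fold with this probe, and BEC over FRC was -1.28. The other probe gave -1.999 for LEC over FRC and -2.82 for BEC over FRC, so only the latter passed 4-fold on it. For LEC over BEC the Klf9 probes gave -0.88 and 0.82, so no order of the endothelia can be read. Klf12, a repressor, read -1.19 for FRC against -3.85 for LEC and -2.05 for BEC, FRC exceeding LEC 6.35-fold.

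Klf2 and Klf4, which blood flow induces in endothelium, were not called. Klf4 read 6.05 for FRC against 6.10 for LEC and 6.37 for BEC, and Klf2 5.51 for FRC against 5.87 for LEC and 7.41 for BEC. BEC was highest for Klf2, by 1.90 over FRC with the probe used and by 0.99 with the other. Of 12 genes known as targets of Klf2 and Klf4 in endothelium, 4 passed 4-fold toward LEC and 0 toward FRC, and 5 toward BEC and 2 toward FRC. S1pr1, a sphingosine-1-phosphate receptor, was at 0.70, 4.93 and 4.80 in FRC, LEC and BEC. Cyp1b1, a cytochrome P450, was at 4.85, 6.13 and 1.48. The list's median was 1.76 for LEC over FRC and 1.28 for BEC over FRC. All 17 Klf members were above background on at least 1 array, 15 of them on all 3.

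Fli1, Ets1, Erg and Elk3, of the Ets family, lay above FRC in both endothelia. Fli1 read -0.87 for FRC against 3.52 for LEC and 4.58 for BEC, LEC exceeding FRC 20.9-fold and BEC exceeding it 43.6-fold. The other Fli1 probe gave 4.28 for LEC over FRC and 2.58 for BEC over FRC. For LEC over BEC the probes gave -1.06 and 1.70, so no order of the endothelia can be read. The Fli1 probe maps to chromosome 9 at 32229857 to 32229916 on the minus strand (mm9).

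Ets1 read 0.95 for FRC against 4.33 for LEC and 3.99 for BEC, LEC exceeding FRC 10.4-fold and BEC exceeding it 8.24-fold. Its 3 other probes went the same way with smaller sizes, 1.48 to 2.61 for LEC over FRC and 1.13 to 1.93 for BEC over FRC. The Ets1 probe maps to chromosome 9 at 32564860 to 32564919 on the plus strand (mm9). Erg, which maintains endothelial identity, read -6.55 for FRC against -1.07 for LEC and -1.38 for BEC, the first not above background. LEC exceeded FRC at least 9.63-fold and BEC exceeded it at least 7.74-fold. Elk3, which works with serum response factor, read 2.82 for FRC against 5.22 for LEC and 5.57 for BEC, LEC exceeding FRC 5.26-fold and BEC 6.75-fold.

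Ets2 read 2.02 for FRC against 3.57 for LEC and 5.26 for BEC, with BEC exceeding FRC 9.46-fold and LEC between them. Lymphocytes also express Ets1 and Fli1. Cd79b, of the B cell receptor, was at -0.81, 1.23 and 2.79 in FRC, LEC and BEC, and Cd3d, of the T cell receptor complex, at -1.49, -1.37 and 0.81. Cd3e, of the same complex and named after its values were seen, was lowest in BEC, at -0.55, -0.73 and -1.12. The part of such cells in the Ets signals was not tested. Etv1, a factor downstream of FGF signalling, ran the other way. It read -1.53 for FRC against -6.15 for LEC and -4.24 for BEC, the LEC signal not above background, and FRC exceeded LEC at least 6.37-fold and BEC 6.55-fold. Etv3 gave -1.01 for BEC over FRC with the probe used, while on the other, not above background in FRC, BEC exceeded FRC at least 3.13-fold, so its probes disagree in direction. Etv2, which starts endothelial fate in the embryo, was above background on no array.

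Genes that Ets and forkhead proteins are known to activate in endothelium were read as a list of 21. Of these, 17 passed 4-fold toward LEC and 20 toward BEC, and 0 toward FRC in either pair. The list's median was 5.38 for LEC over FRC and 6.80 for BEC over FRC. Several of its genes, such as Pecam1, which encodes the sorted CD31, are also endothelial markers, so the list is not independent of the sort. Notch4, a Notch receptor of vessels, was at -2.21, 0.04 and 4.55 in FRC, LEC and BEC. Of 8 Ets-domain genes outside the name rule, Spib and Spic passed toward FRC against BEC, and Spib, a lymphoid factor, was at 2.96, 3.13 and -0.45. Of 8 other high-mobility-group and T-box genes, 6 could be compared and 0 were called.

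Of 18 cofactors and partners, 3 passed 4-fold toward LEC and 1 toward FRC, and 4 toward BEC and 1 toward FRC. Tal1, a basic helix-loop-helix partner of Gata proteins, was at -1.82, 3.33 and 4.54 in FRC, LEC and BEC. Lyl1, its relative, was at -2.23, 4.33 and 2.57. Zfpm2, a cofactor that binds Gata proteins, was at 1.54, 0.25 and -1.77, lowest in BEC. Hey1, a repressor downstream of Notch, was at 0.98, 1.19 and 4.60, highest in BEC. Their relatives in the list went other ways and were named after their values were seen. Zfpm1 was highest in BEC and passed 4-fold there over FRC. Hey2 was highest in FRC and passed 4-fold there over LEC.

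Other probes of a called member were read the same way, as a lower bound where the probe itself was not above background on the dimmer array. Where such a probe gave a value, all of them went in the direction of the probe used, for 11 of 11 calls between LEC and FRC, 11 of 11 between BEC and FRC and 5 of 5 between the endothelia. They passed 4-fold for 7, 6 and 3 of these. The exceptions were Ets1, Klf15, Klf9 and Sox8 in the first pair, Ets1, Klf15, Klf5, Sox14 and Sox8 in the second, and Sox14 and Sox9 in the last, where the values from Sox8, Sox14, Klf5 and Sox9 were bounds.

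**Figure D3:**
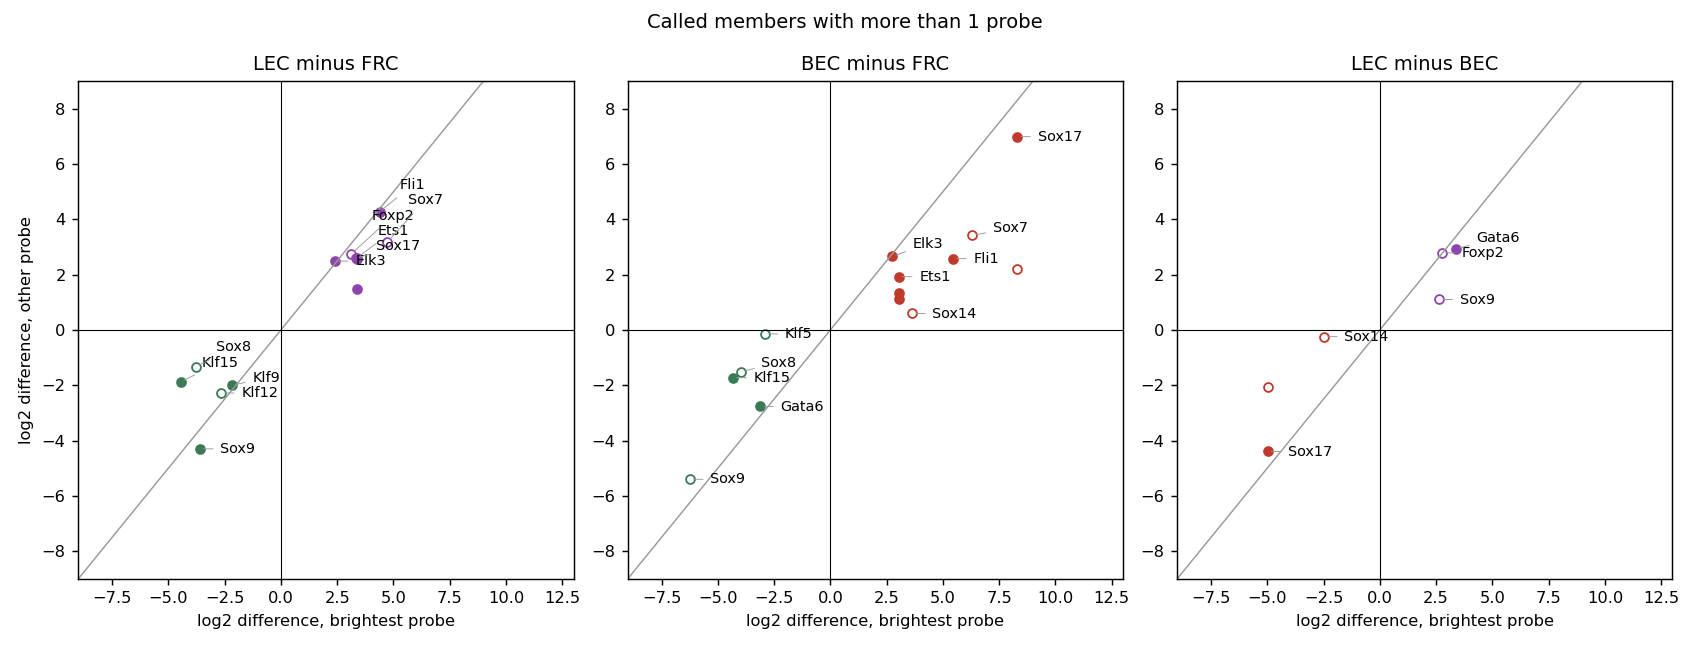
Log2 difference from the other probes of a called member (y axis) against that from its brightest probe (x axis). Filled points are measured on both arrays and open points are lower bounds for the other probe. The x values of Sox8, and of Sox9 against BEC, are lower bounds as well, and the line marks equal values. All points lie on the same side of 0 on both axes, and the Klf15 points sit at -1.87 and -1.73 on the y axis.

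Members called in none of the 3 comparisons and measured on both arrays lay mostly within 2-fold. These were 40 of 48 between LEC and FRC, 44 of 49 between BEC and FRC and 42 of 50 between the endothelia. Members called in another pair are not in these counts. Leaving out called members removes large differences by construction, and the same counts were not made over all genes. The counts therefore show nothing particular to these families. Just under the threshold among the uncalled members were Klf2 for BEC over FRC, at 1.90, and Etv3 for LEC over BEC, at 1.72. The other Etv3 probe gave -0.88 for LEC over BEC, so no order of the endothelia can be read for Etv3. Klf12, called for LEC against FRC, gave -1.80 for LEC over BEC. Just past the threshold were Klf9, at -2.17 for LEC over FRC, and Foxs1, at -2.22 for BEC over FRC. Of 45 calls on members, 31 were kept under every one of the 8 alternative analyses that gave a value, and 0 changed direction. Under normexp background correction Erg, Etv1, Foxo6 and Sox14 lost both of their calls, and Klf12 its only one. Normexp also ended the calls of Klf5 and Sox8 for LEC over FRC, of Foxs1 for BEC over FRC and of Sox9 for LEC over BEC. The mean over probes ended those of Ets1 for BEC over FRC and of Sox9 and Sox14 for LEC over BEC.

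**Figure D4:**
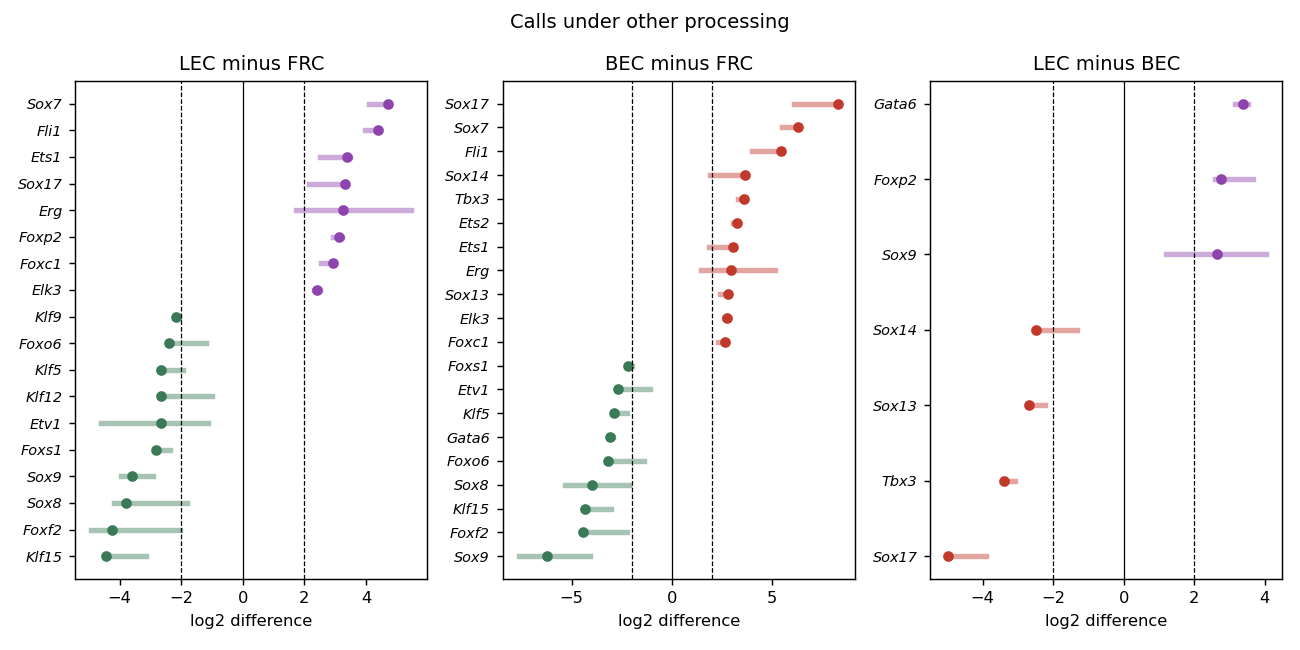
Log2 difference of each call on a member (points) with its range over the alternative analyses (bars), by gene, with dashed lines at 4-fold. The Elk3 bar for LEC over FRC runs from 2.32 to 2.51, that of Erg from 1.74 to 5.48.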

How the data were processed

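The deposited scanner files hold intensity values from Feature Extraction 10.7.3.1 (submitters' processing notes), 1 file per array. According to the headers these were corrected for background and spatial trend within an array and not scaled between arrays, and probe positions are on mm9. The authors' deposited series matrix, a linear intensity table with near-identical column distributions, served as an alternative; its program was not given in the sources used here.

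Outlier spots were dropped and spots averaged, which left 41156 probes, and the array's 75th percentile was subtracted in log2 (386, 268 and 361 intensity units in FRC, LEC and BEC). A gene was compared if any probe was above background on either array, and called if its own probe was so on the brighter array. List genes took current symbols through RefSeq accessions (26681 probes matched). Values are given for members called in any comparison or with the highest reading of their family on an array (a choice of genes, not a comparison of levels), and for at most 4 genes a list. Other uncalled members with values were chosen with these known. Members and lists were chosen with earlier results of these data known. The number of arrays limits the precision. The steps were tested on simulated data. Tools were R 4.3.3, limma 3.58.1 (normexp), Python 3.11.15, numpy 2.4.6, pandas 2.3.3 and matplotlib 3.10.9.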

Additional observations from a re-analysis of the deposited data

How the results depend on the processing

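Counts of members stayed within 1.5 times of those reported under quantile normalization, median scaling, a 75th percentile over probes above background on all arrays, the authors' series matrix and the mean over probes. With normexp, 5 members were higher in FRC against LEC. With only genes above background on all 3 arrays the numbers higher in FRC were 6 (against LEC) and 5 (against BEC), and with no filter on dim probes 5 were higher in LEC against BEC. At 2-fold, 18 were higher in LEC and 14 lower in BEC, each against FRC, and between the endothelia 7 and 14. At 8-fold the moved counts were 4 (FRC against LEC), 7 (BEC against FRC), 1 (LEC against BEC) and 2 (BEC against LEC). Fewer genes entered under the stricter filter. Normexp was run with an offset of 50 intensity units added to every signal, and the part of this offset in the lost calls was not tested. Normexp gave 550 and 636 calls over all genes (LEC against FRC, up and down), 740 and 855 (BEC against FRC), and 287 and 323 (LEC against BEC), and no filter gave 1019 toward LEC against BEC. Of all-gene medians, normexp moved LEC over FRC by 0.10 and no filter moved LEC over BEC by 0.17. Averaging probes took Ets1 for BEC over FRC under the threshold, at 1.86. No paired analysis was possible because each population has 1 array. Signals near background limit the folds of Erg, Etv1, Foxf2, Sox8 and Sox9. They also limit those of Sox14 (FRC at -4.06), Foxo6 (BEC at -4.04) and Klf12 (LEC at -3.85), whose calls normexp ended.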
